A study of Mus musculus with 5 samples.

Results

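Ly6C-high monocytes sorted from the bone marrow (BM) of mice that had received lipopolysaccharide (LPS) were compared with monocytes of the same sort gate from untreated mice, gene by gene. The LPS library held Ly6C+ CD115+ Venus- cells taken 48 h after an intravenous injection of 100 µg of LPS per mouse, and the naive library held cells of the same Ly6C+ CD115+ Venus- gate from mice labelled as having had no treatment. All mice of the series were C57BL/6, aged 7 weeks and heterozygous for Ym1-Venus (+/Ym1Venus), an allele in which the fluorescent protein Venus reports expression of Ym1, the product of the gene Chi3l3. Monocytes that carried Venus after LPS were sorted into a library of their own, so the LPS library here holds the part of the monocytes without the reporter. The other libraries of the series are Ly6G+ neutrophils, from mice given LPS and from untreated ones. The labels do not say whether mice were pooled. The treatment text of the naive samples is the same as that of the injected ones, so that the naive state rests on their own treatment label.

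Of 23234 gene symbols, 10714 had an FPKM (fragments scaled to transcript length and library size, a level per length) of at least 1 in either library. After leaving out 36 microRNA, small nucleolar and small Cajal body RNA genes and 42 genes listed at exactly 0 in one of the libraries, 10636 genes were compared. Just outside this filter lay 1700086O06Rik with 0.314 after LPS and 0.999 in naive monocytes, and just inside it lay Magi2 with 1.0005 and 0.446. Differences are given as log2(FPKM + 1) after LPS minus log2(FPKM + 1) naive, a scale that understates the change of low genes, and "2-fold" means a difference of at least 1 on that scale. Folds are ratios of FPKM. Each condition had 1 library, so there is no replicate check and no test, and every difference describes these 2 libraries. From the most frequent low value, the naive library was estimated to be the deeper of the pair, the depth after LPS being roughly 71.2% of the naive one, so that a 2 kb transcript at an FPKM of 10 stands for 84.6 and 118.8 fragments. The 95% intervals beside the folds come from such estimated fragments and cover counting error only, not the spread between animals or libraries.

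Ly6C-high monocytes leave the BM for blood and inflamed tissue and are renewed from dividing progenitors, while a second, Ly6C-low kind patrols the inner wall of vessels. LPS, a component of the outer membrane of Gram-negative bacteria, is sensed through CD14, MD-2 and the receptor TLR4, and the cytokines released in the first hours act on marrow cells through receptors that signal by STAT3 and through interferon receptors. Prolonged exposure also raises regulators that dampen further signalling, and the demand for new myeloid cells is met by division of progenitors in the marrow.

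Over all genes compared, the libraries were not offset from each other. The median difference was -0.00093 and the middle 50% of genes lay between -0.34 and 0.32. At least 2-fold higher after LPS were 276 genes, 2.59% of those compared, and at least 2-fold lower were 465, or 4.37%. At 4-fold the counts were 26 and 45. Acute-phase genes, regulators of DNA replication and chaperones of the endoplasmic reticulum (ER) were among the higher genes, and enzymes of glycolysis were found in both directions. Lipid carriers, genes of Ly6C-low monocytes, MHC class II genes and immediate early genes were among the lower ones. Of the 276 higher genes, 27 had an estimated count under 3 fragments in the naive library, as had 48 of the 465 lower ones in the LPS library, so that their folds are poorly fixed.

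**Figure D1:**
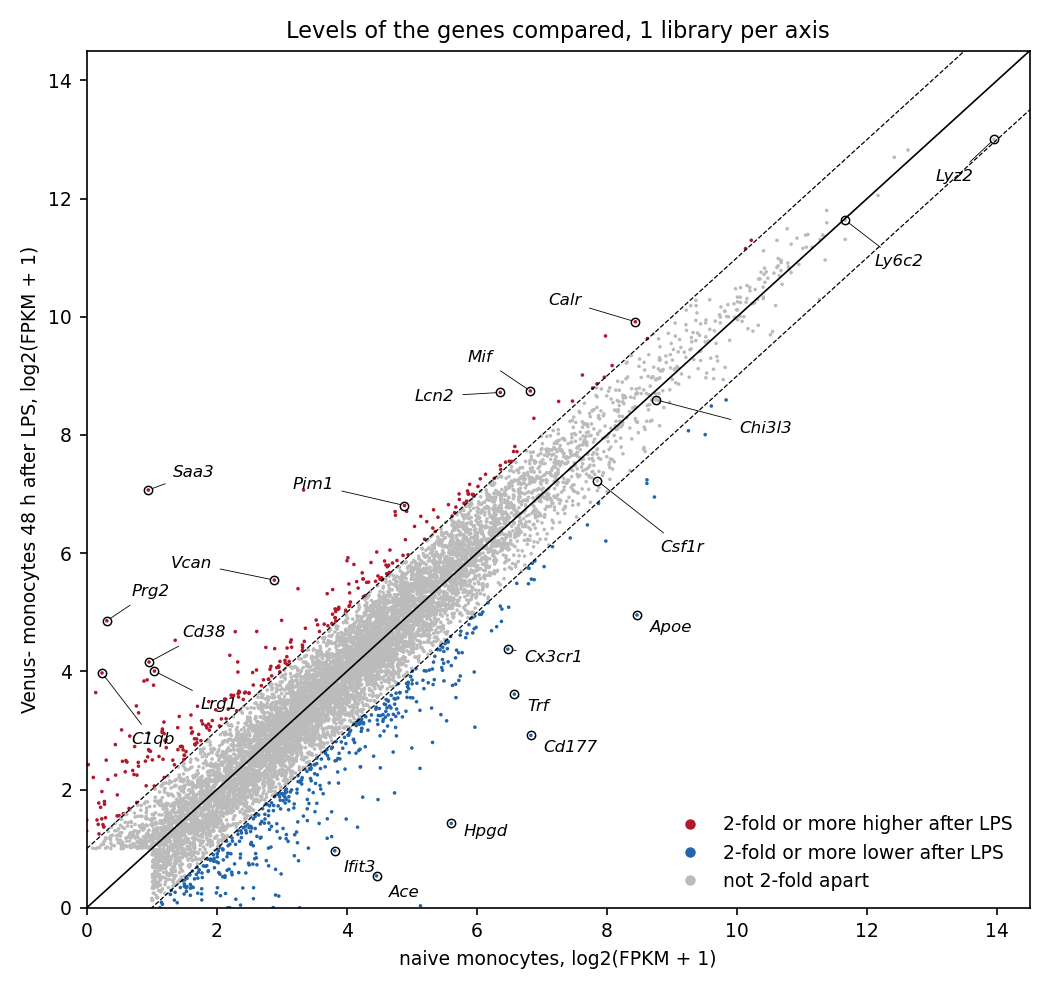
Each point is 1 of the 10636 genes compared, at its level in naive monocytes (x axis) and in Venus- monocytes after LPS (y axis), both as log2(FPKM + 1); dashed lines mark 2-fold. Most genes lie along the diagonal, with Saa3 far above it and Apoe, Ace and Hpgd far below it, while Ly6c2 and Chi3l3 lie close to it.

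The labelled cell type was checked first. Csf1r, which encodes the receptor CD115 used in the sort, was at an FPKM of 148 after LPS and 230.1 in naive monocytes, a difference of -0.63. Ly6c2, a gene of the Ly6C antigen used in the sort, had 3175 and 3245, although it may share reads with its near-identical neighbour Ly6c1. Chi3l3, whose reporter was gated out in both samples, had 386 and 430.03, and in the Venus+ monocytes it was at 1759. Csf1r and Ly6c2, the genes of the antigens sorted for, were thus high in both libraries and less than 2-fold apart. The Chi3l3 transcript, in contrast, was present in both libraries although both are labelled Venus-, at a level below that of the Venus+ library, so the label is not matched by an absence of this transcript. Of 16 genes of monocyte identity, 1 was 2-fold higher and 1 lower, and their median difference was -0.49. Ccr2, the chemokine receptor by which these cells leave the marrow, had 434 and 499, and Lyz2, which encodes lysozyme and had the highest level of all genes in the LPS library, had 8193 and 15831, a difference of -0.95. The other genes of highest level, Actb, Eef1a1, Tmsb4x and Rplp1, had differences of 0.19, 0.28, -0.11 and 0.42.

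Markers of marrow cells other than granulocytes and macrophages were mostly low, while neutrophil genes, described further on, were not. Of 16 B cell genes 15 were under an FPKM of 1 in both libraries, and Cd79a, Ms4a1 and Pax5 were listed at 0 in both. Of 16 T and NK cell genes 14 were under 1, with Cd3e, Lck and Prf1 at 0, while Nkg7 had 5.61 after LPS and 18.5 in naive monocytes and Ccl5 had 4.57 and 0.46. None of 14 stromal and endothelial genes entered the comparison. The summed FPKM of 11 erythroid genes was 3.16 after LPS and 20.8 in naive monocytes, and that of 10 platelet and megakaryocyte genes was 1.41 and 14.7. Low levels of red cell and platelet transcripts were thus measured in the naive library and less of them in the LPS library, whereas the 2 T and NK cell genes compared differed in opposite directions. Of 14 dendritic cell genes 6 entered, none 2-fold higher and 1, Flt3, lower, and 4 of the 6 had a difference above 0. Their list had summed levels of 103 and 104, most of it from Bst2, also an interferon-stimulated gene, with 78.7 and 63.0. In a bulk library, fewer cells of a type and less RNA per cell cannot be told apart.

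Saa3, which encodes the acute-phase protein serum amyloid A3, had the largest difference of all genes compared. Its FPKM was 133 after LPS and 0.93 in naive monocytes, a difference of 6.12 and a fold of 143 (interval 71.2 to 342). Venus+ monocytes had 278. Of 8 acute-phase genes compared, 5 were at least 2-fold higher and 1 lower, with a median difference of 1.66 that stayed between 1.16 and 2.68 over the alternatives tried. Lrg1, a secreted glycoprotein of the acute phase, had 15.1 and 1.06, a fold of 14.2 (7.14 to 32.4). Lcn2, which encodes the protein lipocalin 2 that withholds bacterial iron carriers, had 420.4 and 81.1, a fold of 5.19 (4.67 to 5.78). Lrg1 and Lcn2 are also abundant in neutrophils, with 1781 and 22622 in the neutrophils after LPS, and the part of neutrophil RNA in their difference was not tested. Serpina3g, a protease inhibitor, had 3.50 and 0.25, and Cp, the copper-carrying ferroxidase ceruloplasmin, had 2.37 and 0.21. Hp, which encodes haptoglobin, had 951 and 528, less than 2-fold apart, and the lower member was Fn1, fibronectin, with 256 and 728. Saa1, Saa2, Orm2 and Itih4, acute-phase genes of the liver, were listed at 0 in both libraries.

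The genes of largest difference after Saa3 came from several families. Cd38, which encodes a surface enzyme that consumes NAD, had 16.9 after LPS and 0.94 in naive monocytes, a fold of 17.9 (11.1 to 30.5). F11r, the junctional adhesion molecule JAM-A, had 13.3 and 0.84, a fold of 15.8 (8.87 to 30.7). Zfp36l1, a protein that marks messenger RNA for decay, had 12.6 and 1.04. In these genes the naive level was at or under an FPKM of about 1 while the level after LPS was clearly measurable. Vcan, which encodes the matrix proteoglycan versican, had 45.7 and 6.39, a fold of 7.15 (6.17 to 8.31), and Venus+ monocytes had 85.6. Mif, a secreted cytokine, had 428 and 112, a fold of 3.82 (3.38 to 4.32). Clec4e, the receptor Mincle for mycobacterial glycolipid and dead cells, had 24.6 and 5.12. Membrane lipid enzymes were also among these genes, since Atp11a, a phospholipid flippase, had 41.2 and 8.51, and Fads1, a fatty acid desaturase, had 18.3 and 3.60. Ifitm1, an interferon-induced membrane protein, had 103 and 25.8. 4930506M07Rik had 22.1 and 1.57, 1100001G20Rik had 133 and 9.09, and Gm15350 had 24.5 and 3.87.

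Prg2, which encodes the major basic protein of eosinophils, had the second largest increase, with 28.0 after LPS and 0.24 in naive monocytes, or an estimated 99.2 and 1.19 fragments, so that its fold of 117 has an interval from 23.03 to 2796. It was listed at 0 in the Venus+ library. Of 7 eosinophil, basophil and mast cell genes compared, 3 were 2-fold higher and 0 lower. Besides Prg2 these were the eosinophil ribonuclease genes Ear6, with 9.67 and 0.70, and Ear1, with 11.1 and 3.79, and the members of this family may share reads. Ear2 had 24.9 and 35.2, Mcpt8, a basophil protease, had 1.68 and 2.39, and Epx, the eosinophil peroxidase, had 1.37 after LPS and is listed at 0 in naive monocytes. Alox15, a lipoxygenase abundant in eosinophils, had 2.42 and 0.14. Ccr3, a chemokine receptor of eosinophils, was under 1 in both libraries. The summed level of the list was 78.6 after LPS and 46.1 in naive monocytes, and the part of eosinophil RNA in these differences was not tested. Gm9786, also among the 20 largest, had 11.5 and 0.10, with under 1 fragment in the naive library.

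C1qb, C1qc and C1qa, which encode the 3 chains of the first complement component C1q, were all 2-fold higher. C1qb had 14.7 after LPS and 0.18 in naive monocytes, C1qc had 5.78 and 0.36, and C1qa had 4.62 and 0.52, all resting on about 1 to 3 fragments in the naive library. The interval of the C1qb ratio accordingly runs from 15.8 to 2224, and that of C1qa from 2.73 to 43.6. In Venus+ monocytes the same genes had 31.7, 19.0 and 17.2. C1q is abundant in marrow macrophages. Of 10 macrophage genes compared, 3 were higher (the C1q genes) and 1 lower, Siglec1 with 0.73 and 2.88. Cd163 had 0.80 and 2.04 and Spic, a factor of red pulp and marrow macrophages, had 1.41 and 0.43. Timd4 was listed at 0 in both libraries, and Cd5l and Vsig4 at 0 after LPS. The part of macrophage RNA in the C1q difference was not tested. Of the other complement genes, Cfb, factor B of the alternative pathway, was higher with 14.9 and 4.01, a fold of 3.71 (2.77 to 5.01). C3 had 210.1 and 384, a difference of -0.87.

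Among the genes of cytokine signalling through STAT3, the feedback inhibitor and the kinase gene that this pathway induces were higher, and the receptor genes Il6ra and Csf3r were lower. Socs3, which blocks signalling from the receptors for IL-6 and G-CSF, had 13.5 after LPS and 0.91 in naive monocytes, a fold of 14.9 (8.56 to 28.1). Pim1, a kinase of cell survival, had 111 and 28.6, a fold of 3.88 (3.40 to 4.44). Il6ra, the IL-6 receptor, had 55.8 and 114, and Csf3r, the G-CSF receptor, had 30.2 and 66.1. The shared receptor chain Il6st, with 37.3 and 47.1, and Stat3 itself, with 52.8 and 48.7, were not 2-fold apart. Over the 16 genes compared, 2 were higher and 2 lower, with a median of -0.0032.

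Most genes of LPS sensing were less than 2-fold apart. Of 21 compared, 1 was 2-fold higher and 1 lower, and the median was -0.08. Myd88, the adaptor shared by most Toll-like receptors, had 126 and 59.9, a difference of 1.06 that came to 0.99 after rescaling to TPM. Ly96, which encodes MD-2, the LPS-binding partner of TLR4, had 7.43 and 23.7, a fold of 3.19 lower (1.86 to 5.80). Tlr4 had 9.80 and 6.14, Cd14 had 12.2 and 11.5, and Tlr2 had 39.4 and 30.1. Of 20 brakes on this signalling, 2 were higher and 1 lower, and their median was 0.02. Besides Socs3, the higher one was Il1r2, the decoy receptor that binds interleukin 1 without signalling, with 5.63 and 0.67, a fold of 8.43 (3.42 to 25.6). Il1r2 is also a neutrophil gene. Nfkbie, an inhibitor of NF-kB, was lower with 2.89 and 7.41, while Nfkbia, another, had 67.1 and 37.4, and Bcl3, an atypical member of the same family, had 45.1 and 26.0. Tnfaip3, Irak3 and Tollip had differences of 0.02, -0.03 and 0.08.

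Most transcripts in a list of inflammatory cytokines and enzymes were low in both states at this time. Of 18 genes of cytokines and inflammatory enzymes, 11 were under an FPKM of 1 in both libraries. Il1b had 0.76 and 0.68, and Il6, Il12b and Il23a were listed at 0 in both, as was Csf2. Tnf had 4.99 and 6.77, while Tgfb1 had 192 and 238. Mif, described above, was not in this list. Of the 7 compared, none was 2-fold higher and 3 were lower, namely Il27, Il15 and Il12a. Il15, a growth factor of NK and T cells, had 3.39 and 8.52, a fold of 2.51 (1.47 to 4.51), while Il27 and Il12a rested on under 2 estimated fragments after LPS. Of 8 chemokine genes, Ccl5 was higher with 4.57 and 0.46, on about 1 fragment in the naive library, and 3 were lower. Ccl6, an abundant myeloid chemokine, had 123 and 423, a fold of 3.45 (3.19 to 3.74), and Cxcl10, an interferon-induced chemokine, had 2.86 and 10.2. Ppbp, the third, is a platelet chemokine, with 0.49 and 6.94. Ccl9, at 125 and 134, and Ccl3, at 10.6 and 11.2, were not 2-fold apart.

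Genes of DNA replication differed in 1 direction. All 35 S phase genes compared had a difference above 0, against 49.9% of all genes, and 10 of them were at least 2-fold higher and 0 lower. Their median was 0.83 and stayed between 0.76 and 0.85 over the alternatives. Ccne1, which encodes cyclin E1 that drives entry into S phase, had 59.6 after LPS and 15.2 in naive monocytes, a fold of 3.93 (3.31 to 4.68). Orc1, Orc6 and Cdc6, which load the replicative helicase onto origins, had folds of 2.84 (2.01 to 4.06), 2.37 (1.93 to 2.91) and 2.37 (2.04 to 2.75). Rrm2, a subunit of the enzyme that makes deoxynucleotides, had 223 and 94.9. The helicase subunits Mcm3 and Mcm4 had 169.8 and 81.5, and 97.9 and 48.2, and Pcna, the sliding clamp of the polymerase, had 444 and 263, short of 2-fold. E2f1 had the smallest difference of the list, with 28.8 and 24.7.

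Genes of the later cell cycle differed less. Of 35 G2 and M phase genes none was 2-fold higher or lower, 26 had a difference above 0, and their median was 0.34. Ccnb2, a mitotic cyclin, had 168 and 97.1, Birc5, survivin, had 208 and 158, and Ccna2, cyclin A2, had 164 and 117. Mki67 had 121 and 138, Top2a had 151 and 133, and Ube2c, which ubiquitinates mitotic cyclins, had 144 and 165. Venus+ monocytes had 109.7 for Mcm3 and 222 for Top2a. Histone genes whose transcripts lack a poly(A) tail in dividing cells did not follow the S phase list. Of 53 compared, 1 was higher and 6 lower, with a median of -0.35. These genes were low, with a summed FPKM of 249 and 307.

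The share of replication genes with a site for E2F, the factor family that controls them, was read from the 250 bases upstream of the RefSeq start (GRCm38.p6, a build other than that of the files). The letters TTTCCCGC or TTTGGCGC occur on either strand in 1.51% of the 27025 promoters in the table, in 3.17% of the 8524 compared genes that matched, in 5 of 29 S phase genes and in 0 of 28 G2 and M phase genes. Windows from Cdc6, the S phase gene past 2-fold with a match, and from the helicase subunits Mcm5 and Mcm6, which were short of 2-fold, are shown as examples of the 5 genes. Mcm6 holds a second match, and both are shown. Capitals mark the match, which in Cdc6 and Mcm5 reads on the opposite strand. The Cdc6 window is at chr11:98907988-98908045 and the Mcm5 window at chr8:75109335-75109392, both on the + strand. The first Mcm6 window is at chr1:128359783-128359840 and the second at chr1:128359720-128359777, both on the - strand.
Cdc6: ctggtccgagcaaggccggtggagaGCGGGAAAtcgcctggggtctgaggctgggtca
Mcm5: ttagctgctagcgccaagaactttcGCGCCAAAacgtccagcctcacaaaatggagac
Mcm6, first: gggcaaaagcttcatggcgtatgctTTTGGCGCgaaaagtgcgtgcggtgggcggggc
Mcm6, second: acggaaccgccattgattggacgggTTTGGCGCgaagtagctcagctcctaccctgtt
A match describes letters only. Mcm6 had 192 and 113, Mcm5 had 211 and 108, and Mcm7 and Pola1, which also hold a match, had differences of 0.85 and 0.35.

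**Figure D2:**
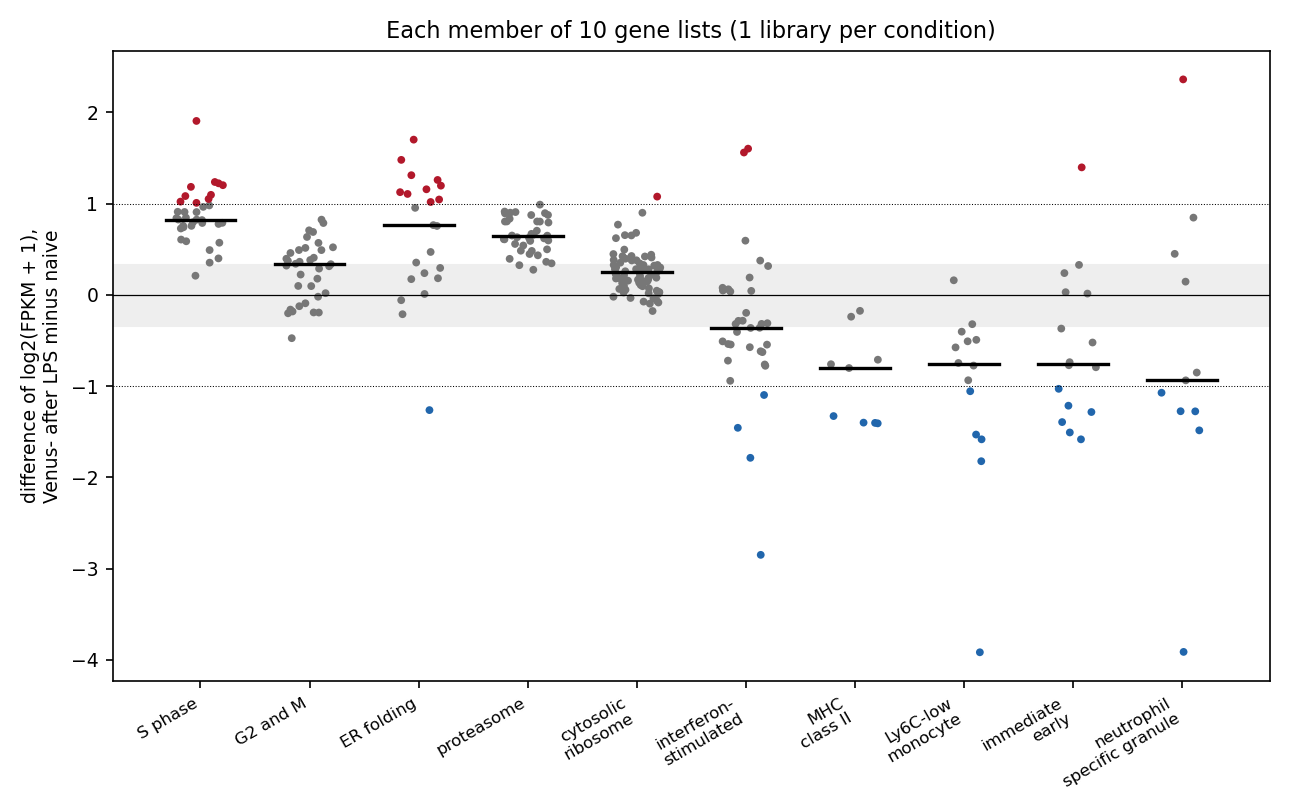
Each point is the difference of 1 gene, as log2(FPKM + 1) in Venus- monocytes after LPS minus naive, for 10 gene lists; black bars are list medians, dotted lines mark 2-fold and the grey band holds the middle 50% of all genes compared, -0.34 to 0.32. The S phase points all lie above 0, with a median of 0.83, and the G2 and M phase points centre on 0.34.

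Chaperones and folding enzymes of the ER were higher as well. Of 23 genes compared, 10 were at least 2-fold higher and 1 lower, 20 had a difference above 0, and the median was 0.76. Creld2, a stress-induced ER protein, had 55.1 after LPS and 16.3 in naive monocytes, a fold of 3.39 (2.76 to 4.18). Calr, the calcium-binding chaperone calreticulin, had 964 and 345, a fold of 2.79 (2.69 to 2.90). Hspa5, which encodes BiP, the main ER chaperone, had 378 and 152, a fold of 2.49 (2.38 to 2.61). The disulfide isomerases Pdia4 and Pdia6, the secreted factor Manf and the chaperone partners Sdf2l1, Hyou1, Dnajb11 and Hsp90b1 were the other members past 2-fold. Sensors and factors of the stress response were not among the higher genes. Ern1, the sensor IRE1 that splices Xbp1 messenger RNA, was lower with 11.6 and 29.3, and Xbp1, Atf4, Atf6 and Ddit3 had differences of 0.35, 0.18, -0.06 and -0.21.

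Many of these chaperone genes share an element upstream of their start. The ER stress response element, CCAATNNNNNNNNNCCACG on either strand, occurs in the 250 upstream bases of 35 of 27025 promoters (0.130%), of 12 of 8524 compared genes (0.141%) and of 7 of 20 matched members of the ER list. It was found in 5 of 219 matched genes that were 2-fold higher, all of them among the 7 ER genes just counted. None of the 362 matched lower genes held it, but at a share of 0.141% few matches can fall among 362 genes. The windows of all 7 genes are shown, with the element in capitals, since this element is shared by the chaperone genes and rare among all promoters. The element reads on the opposite strand in Calr, in Creld2 and in the second Hsp90b1 window. Positions are chr2:34772000-34772068 (+) for Hspa5, chr8:84847050-84847118 (-) for Calr, chr15:88819495-88819563 (+) for Creld2, chr12:17266466-17266534 (+) for Pdia6, chr10:86705613-86705681 and chr10:86705508-86705576 (both -) for Hsp90b1, chr11:50325775-50325843 (-) for Canx and chr14:118937802-118937870 (+) for Dnajc3, all in GRCm38.p6.
Hspa5: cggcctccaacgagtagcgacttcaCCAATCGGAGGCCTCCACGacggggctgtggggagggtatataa
Calr: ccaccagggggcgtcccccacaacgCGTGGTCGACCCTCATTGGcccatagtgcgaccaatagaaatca
Creld2: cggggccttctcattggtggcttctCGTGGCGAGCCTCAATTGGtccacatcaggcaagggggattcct
Pdia6: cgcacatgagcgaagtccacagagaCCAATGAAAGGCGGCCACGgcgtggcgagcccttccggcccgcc
Hsp90b1, first: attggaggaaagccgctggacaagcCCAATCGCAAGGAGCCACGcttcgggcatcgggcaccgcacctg
Hsp90b1, second: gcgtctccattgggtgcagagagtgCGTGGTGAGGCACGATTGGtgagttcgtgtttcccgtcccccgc
Canx: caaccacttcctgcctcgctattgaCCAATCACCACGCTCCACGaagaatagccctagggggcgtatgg
Dnajc3: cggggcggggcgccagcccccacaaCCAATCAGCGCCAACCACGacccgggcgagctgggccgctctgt
Creld2, Calr, Hspa5, Pdia6 and Hsp90b1 had differences of 1.70, 1.48, 1.31, 1.16 and 1.02, while Canx and Dnajc3, which hold the same element, had 0.76 and 0.47.

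Other motifs were searched in the same windows. STAT sites, TTCCNGGAA, were found in 0.913% of matched genes that were 2-fold higher and in 1.30% of all matched genes. For kappaB sites, GGGANNTTCC, the shares were 2.28% and 1.38%, and for C/EBP sites, TTGCNCAA, they were 2.74% and 2.69%. An interferon response element, GAAANNGAAA, was found in 4.11% of the higher, 7.46% of the lower and 3.45% of all matched genes, and in 11 of 24 interferon-stimulated genes. Neither Saa3 nor Socs3 held a STAT or kappaB match in this window, which says nothing of sites elsewhere.

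Genes of glycolysis were found in both directions, with 16 of 21 above 0. Of 21 glycolysis genes, 3 were higher and 2 lower, and their median was 0.57. Ldha, which makes lactate, had 516 after LPS and 196 in naive monocytes, a fold of 2.63 (2.49 to 2.79). Gapdh had 2276 and 1119, and Pgk1 had 443 and 219, both with differences of 1.02 that came to 0.94 after rescaling to TPM. The lower members were Hk2, hexokinase 2, with 15.5 and 32.4, and Pfkfb4, which makes an activator of glycolysis, with 10.3 and 23.9. Ldhb, the lactate dehydrogenase subunit of oxidative tissue, stood among the 20 largest decreases with 4.13 and 33.9, a fold of 8.20 (5.34 to 13.2). Ldha and Ldhb thus differed in opposite directions.

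Mitochondrial and proteasome subunits were shifted as families, mostly by less than 2-fold. All 38 proteasome subunit genes had a difference above 0, with a median of 0.64 and none past 2-fold. Psmc5 had the largest, 0.99. Of 76 mitochondrial ribosomal protein genes, 74 were above 0 and 2, Mrps18b and Mrpl16, were past 2-fold, with a median of 0.54. Of 36 NADH dehydrogenase subunits 34 were above 0, with a median of 0.49, and of 35 other subunits of the respiratory chain and ATP synthase 31 were above 0, with a median of 0.57. Of these, Cyc1, cytochrome c1, was higher with 139 and 63.7, and Cox6b2 was lower with 5.13 and 16.6. Of 80 cytosolic ribosomal protein genes, 72 were above 0 and 1, Rps2, was past 2-fold, with a median of 0.25, although processed pseudogenes may share their reads. These families kept the sign of their medians under each alternative, and after rescaling to TPM the medians were 0.56, 0.48, 0.41, 0.49 and 0.17 in the same order.

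Of 22 genes of oxidative stress defence compared, 4 were higher and 0 lower, and the median was 0.22. The higher ones were Mt1, a metal-binding metallothionein, with 86.6 and 31.9, Srxn1, sulfiredoxin, with 6.65 and 2.30, Txnrd1, thioredoxin reductase, with 47.0 and 22.2, and Gclm, a subunit of the enzyme of glutathione synthesis, with 30.7 and 14.8. Prdx5 and Mgst1 had differences of -0.85 and -0.79.

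**Figure D3:**
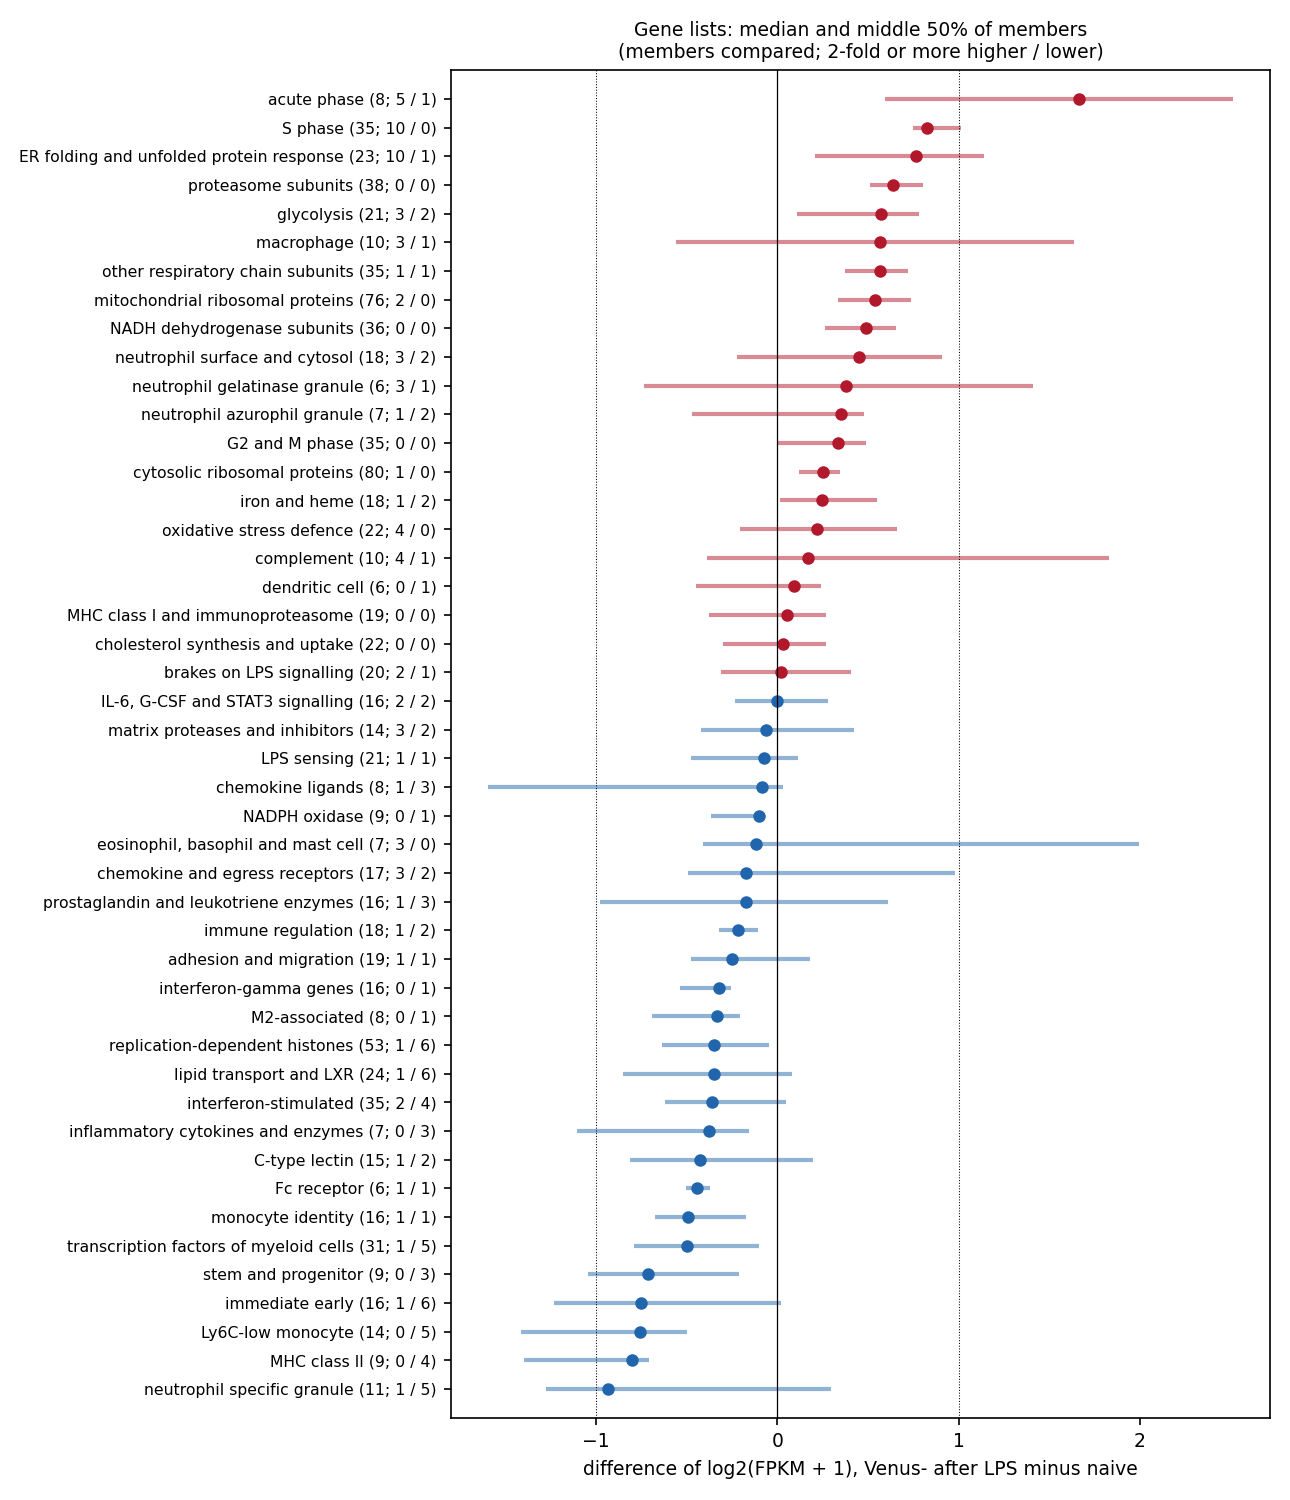
Dots are the median difference of log2(FPKM + 1) after LPS minus naive for the 46 gene lists with at least 6 members compared, and bars hold the middle 50% of members; brackets give members compared and the counts 2-fold higher and lower. Acute-phase, S phase and ER folding genes lie at the top, with medians of 1.66, 0.83 and 0.76, and MHC class II and specific granule genes at the bottom, with -0.80 and -0.94.

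The lower genes included those that mark Ly6C-low monocytes. Ace, which encodes angiotensin-converting enzyme, had 0.45 after LPS and 21.0 in naive monocytes, a fold of 46.1 lower (22.2 to 115), and 0.61 in Venus+ monocytes. Of 14 genes of Ly6C-low monocytes compared, none was 2-fold higher and 5 were lower, with a median of -0.76. Emr4, a surface receptor of the adhesion type, had 4.23 and 17.5, a fold of 4.14 (3.16 to 5.50). Nr4a1, the nuclear receptor on which Ly6C-low monocytes depend, had 9.03 and 29.0, a fold of 3.22 (2.57 to 4.06). Cx3cr1, the fractalkine receptor that these cells carry at a high level, had 19.8 and 88.0, a fold of 4.45 (3.95 to 5.03). S1pr5, a sphingosine phosphate receptor of their exit from marrow, had 1.31 and 12.6, a fold of 9.66 (5.59 to 18.1). Spn, CD43, had 134 and 177 and Itgal had 57.1 and 98.4, both less than 2-fold apart. Both libraries were sorted as Ly6C+ CD115+, a gate that would leave out Ly6C-low cells, and whether any passed it was not tested.

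Apoe, the lipid carrier apolipoprotein E, was the most abundant gene with a difference of this size. Its FPKM was 30.003 after LPS and 351 in naive monocytes, a difference of -3.51 and a fold of 11.7 lower (9.88 to 13.97), and Venus+ monocytes had 77.9. Of 24 genes of lipid transport and the oxysterol receptor LXR compared, 1 was higher and 6 lower, with a median of -0.35. Apoc2, its neighbour in the genome and an activator of lipoprotein lipase, had 26.0 and 78.0, and Pltp, a phospholipid transfer protein, had 1.601 and 6.17. Rxra, the receptor that pairs with LXR, had 5.32 and 17.2, and Mylip, an LXR target, had 4.15 and 9.94. Cyp27a1, which makes an oxysterol ligand of LXR, was lower with 5.96 and 38.9, a fold of 6.52 (4.83 to 8.99). Abcg1, a cholesterol exporter that LXR also controls, had 10.2 and 11.8. The higher member was Scd2, a desaturase, with 46.3 and 18.1. In all, 6 of the 24 had a difference above 0. Among these, short of 2-fold, were Lpcat3 with 31.6 and 18.9, Srebf1 with 25.8 and 17.2 and Nr1h3 with 1.47 and 0.67. None of 22 genes of cholesterol synthesis and uptake was 2-fold apart, and their median was 0.03.

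Hpgd, an enzyme of lipid mediators, and Trf, an iron carrier, were also among the largest decreases. Hpgd, which inactivates prostaglandins, had 1.69 after LPS and 47.7 in naive monocytes, a fold of 28.2 lower (15.99 to 54.8). Ptgs1, cyclooxygenase 1, had 2.81 and 11.4, and Ptger4, a prostaglandin E2 receptor, had 9.27 and 20.8. Of 16 genes of this list 1 was higher, Alox15, and 3 lower. Alox5ap, which presents substrate for leukotriene synthesis, had 608 and 831, and Ptgs2, cyclooxygenase 2, was under 1 in both libraries. Trf, which encodes the iron carrier transferrin, had 11.2 and 94.4, a fold of 8.39 (6.94 to 10.2), and Slc11a1, an iron and manganese transporter of phagosomes, had 17.4 and 43.3. The ferritin chains Fth1 and Ftl1 had differences of 0.71 and 0.21. Of 18 iron and heme genes compared, 1 was higher, Lcn2, and 2 lower, Trf and Slc11a1. In all, 13 of the 18 had a difference above 0, and the median was 0.25.

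Several MHC class II genes, which present antigen to helper T cells, were lower. Of 9 compared none was 2-fold higher and 4 were lower, all 9 had a difference below 0, and the median was -0.80, or -1.33 when the filter was set at an FPKM of 5. H2-Aa had 7.91 after LPS and 22.5 in naive monocytes, H2-Ab1 had 9.29 and 26.2, H2-Eb1 had 1.31 and 5.14, and Cd74, the invariant chain, had 45.9 and 117. In Venus+ monocytes these 4 genes had 0.44, 1.25, 0.39 and 13.4. Ciita, their regulator, was close to the filter with 0.74 and 1.06. Dendritic cells and B cells also carry these genes, and beside them Cd209a, a lectin of monocyte-derived dendritic cells, is listed at 0 after LPS and had 12.7 in naive monocytes. Their part in the difference was not tested. Of 19 class I and immunoproteasome genes 0 were past 2-fold, and the median was 0.05. B2m had 2664 and 2556, H2-D1 had 499.5 and 734, and H2-K1 had 384 and 411.

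Interferon-stimulated genes were found in both directions, with 11 of 35 above 0. Of 35 compared, 2 were 2-fold higher and 4 lower, and the median was -0.36. Ifit3, Rsad2, Ifit1 and Isg15, early antiviral genes, had folds of 13.7 (6.49 to 34.7), 5.86 (3.49 to 10.5), 4.73 (2.41 to 10.4) and 2.31 (1.40 to 3.97) lower after LPS. Ifit3 was at 0.95 and 13.1. Oas1a and Oas1g, sensors of double-stranded RNA with near-identical sequences, had 63.9 and 21.0, and 40.8 and 12.8. Ifitm3, at 776 and 946, Ifi27l2a, at 317 and 301, and Samhd1, at 158 and 243, were not 2-fold apart. Of 16 interferon-gamma genes, none was 2-fold higher and 1, Tgtp1, was lower. Only 2 of the 16 had a difference above 0, and the median was -0.32.

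Transcription factors and immediate early genes were lower for several members. Of 31 myeloid factors compared, 1 was higher and 5 lower, with a median of -0.50. Irf4 had 1.15 and 8.45, a fold of 7.38 (4.81 to 11.9), Cebpa had 24.0 and 56.6, a fold of 2.36 (2.05 to 2.74), Klf2 had 24.1 and 60.2, and Bach1, a repressor of heme and antioxidant genes, had 19.7 and 41.1. Cebpb, the C/EBP factor of emergency myelopoiesis, had 191 and 193, and Irf8, a factor that monocytes require, had 171 and 271. Gfi1b was the higher one, with 1.59 and 0.20. Of 16 immediate early genes, 1 was higher and 6 lower, with a median of -0.75. Fosl2 had 16.1 and 47.7, Rhob had 15.7 and 43.0, Btg2 had 15.1 and 36.3, and Ier3 was the higher one with 7.96 and 2.40. Fos, with 32.7 and 25.8, and Junb, with 63.1 and 61.8, were not 2-fold apart.

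Some genes of less mature cells were lower. Of 9 stem and progenitor genes compared none was 2-fold higher and 3 were lower, with a median of -0.71 that was -1.34 with a pseudocount of 0.1 and -0.22 with no filter on low values. Cd34 had 4.92 after LPS and 20.3 in naive monocytes, a fold of 4.12 (3.07 to 5.65), Kit, the receptor for stem cell factor, had 0.47 and 3.71, and Flt3, a receptor of early and dendritic progenitors, had 1.92 and 5.02. Myb had 15.9 and 22.2, and the 2 members with a difference above 0 were Hoxa9, with 1.14 and 0.29, and Meis1, with 2.58 and 1.74.

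Neutrophil genes were found in both directions. Of 11 specific granule genes 1, Lcn2, was 2-fold higher and 5 were lower, with a median of -0.94. Cd177, a surface protein of neutrophils, had 6.56 after LPS and 113 in naive monocytes, a fold of 17.2 (13.7 to 21.95). Ltf, lactoferrin, had 9.01 and 23.2, and Camp, cathelicidin, had 13.5 and 39.6. The other lower members, Ngp and Pglyrp1, had 46.2 and 113, and 24.6 and 52.9. Venus+ monocytes after LPS were above the naive levels for Ltf (102.8), Camp (102.7), Ngp (387) and Pglyrp1 (101). For Cd177 they had 35.5, below the naive level. The calprotectin genes S100a8 and S100a9 had 1107 and 595, and 648 and 331, less than 2-fold apart. Retnlg, which neutrophils carry at a high level, had 10.6 and 13.9. Of 7 azurophil granule genes, which progenitors of neutrophils and monocytes both express, Ms4a3 was higher with 127 and 51.9, and Mpo and Elane, myeloperoxidase and neutrophil elastase, were lower with 385 and 910.3, and 268 and 609. Prtn3 and Ctsg, from the same granules, had differences of 0.35 and 0.43. Of 6 gelatinase granule genes, the proteases Mmp25 and Adam8 and the receptor Fpr1 were higher and Slc11a1 was lower, and of 18 other neutrophil genes 3 were higher, Lrg1, Il1r2 and Trem1, and 2 lower, Padi4 and Csf3r. The summed level of these 18 genes was 2101 after LPS and 1252 in naive monocytes, against 242885 in neutrophils after LPS. Most of each sum came from S100a8 and S100a9. Of the 18, 13 had a difference above 0, and the median was 0.45.

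**Figure D4:**
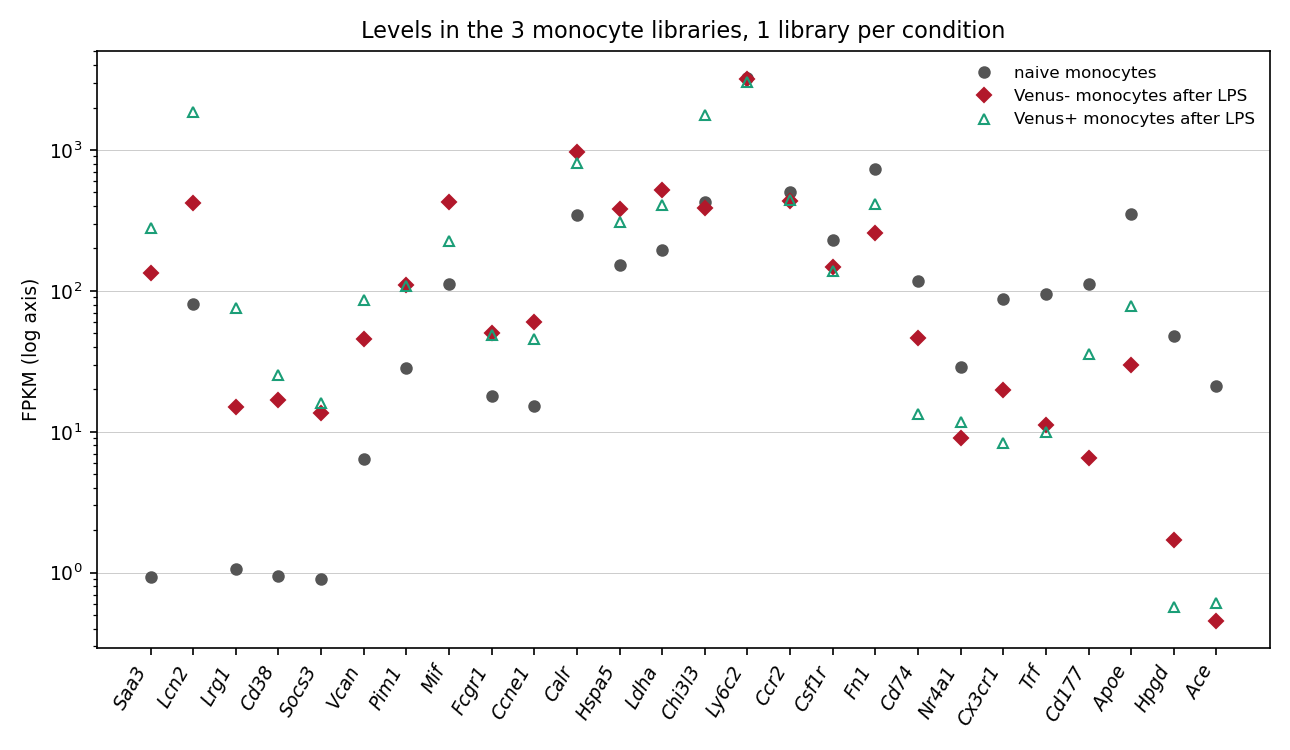
Points are the FPKM, on a log axis, of 26 genes in naive monocytes (circles), Venus- monocytes after LPS (diamonds) and Venus+ monocytes after LPS (open triangles), 1 library each. Ly6c2 and Ccr2 lie close together in the 3 libraries, Saa3 is at 0.93 in naive monocytes against 133 and 278 after LPS, and Ace is at 21.0 against 0.45 and 0.61.

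Receptors of migration and uptake were found in both directions. Of 17 chemokine and egress receptors, 3 were higher and 2 lower. Among the higher ones, Cmklr1, the chemerin receptor, had 5.27 after LPS and 0.97 in naive monocytes, and Fpr1, a receptor for bacterial formyl peptides, had 7.64 and 2.45. Ccr1 and Fpr2 had differences of 0.98, just short of 2-fold, and the lower members were Cx3cr1 and S1pr5. Cxcr4, which retains cells in marrow, had 204 and 229. Of 6 Fc receptor genes, Fcgr1, the high-affinity receptor for IgG, was higher with 49.8 and 17.9, a fold of 2.79 (2.41 to 3.24), and Fcgrt, which recycles IgG, was lower with 10.7 and 31.3. Of 15 C-type lectins, Clec4e was higher and Clec2d and Clec4a3 were lower, and Clec7a, the receptor for fungal glucan, had 96.9 and 184. Of 19 adhesion genes, F11r was higher and Itga4, the integrin that binds VCAM-1, was lower with 32.2 and 82.5, a fold of 2.56 (2.41 to 2.72).

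Smaller groups had few members past 2-fold. Of 14 matrix proteases and inhibitors 3 were higher, Mmp25, Adam8 and Timp1, and 2 lower, Adam19 and Timp2. Mmp8 had 80.01 and 72.3, and Mmp9 had 3.86 and 7.41. Of 9 NADPH oxidase genes none was higher and 1, the proton channel gene Hvcn1, was lower. Of 8 genes associated with alternative activation, Irf4 alone was 2-fold lower and none was higher, and Mrc1 had 1.04 and 2.11. Of 18 genes of immune regulation, Il1r2 was higher and Il10ra, the IL-10 receptor, and Tnfrsf1b, a TNF receptor, were lower, with 29.1 and 60.2, and 57.5 and 118. Lgals1 and Lgals3, the galectins, had differences of 0.68 and -0.18.

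Remaining genes of the 20 largest decreases had varied roles. Padi2, which converts arginine to citrulline in proteins, had 7.32 after LPS and 61.6 in naive monocytes, a fold of 8.42 (7.12 to 10.03). Stxbp6, a regulator of vesicle fusion, had 2.85 and 25.6, Acss1, a mitochondrial acetyl-CoA synthetase, had 1.26 and 11.98, and Abca9, a transporter, had 2.66 and 18.0. Itgb3, an integrin chain that platelets also carry, had 1.84 and 11.99, Ldlrad3 had 7.96 and 45.3, Rbpms, an RNA-binding protein, had 2.56 and 21.3, and Rem1, a small GTPase, had 1.83 and 14.9. 2210020M01Rik had 5.52 and 31.0 and Gm4763 had 1.58 and 16.9. Rpl34-ps1, a ribosomal pseudogene, had 0.02 and 34.1, which is uncertain because its reads may be shared with Rpl34.

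The neutrophil libraries give a second LPS pair that shares no library with the monocyte pair. In it 827 of 9513 genes (8.69%) were at least 2-fold higher after LPS and 480 (5.05%) lower, or 759 and 709 after rescaling to TPM. Of 9026 genes compared in both pairs, 109 were 2-fold higher in both, which is 52.4% of the 208 higher monocyte genes and 14.2% of the 766 higher neutrophil genes. Lower in both were 95, which is 29.2% of 325 and 26.2% of 363. Saa3 had 24.5 and 0.30 in the neutrophils, Socs3 had 48.9 and 8.10, Cd38 had 79.2 and 2.70, and Apoe had 3.95 and 22.3, so these genes differed in the same direction in both cell types. Of 33 S phase genes 19 were higher in neutrophils and 0 lower, the median being 1.26, and of 23 ER genes 18 were higher and 1 lower, the median being 1.57. The monocyte medians of these lists were 0.83 and 0.76, and the difference between the cell types was not tested. In the opposite direction were 10 genes higher in monocytes and lower in neutrophils, and 13 the reverse. The 10 are 4.81% of the 208 higher monocyte genes, and 5.05% of all neutrophil genes compared were lower. The 13 are 4% of the 325 lower monocyte genes, and 8.69% of all neutrophil genes compared were higher. These opposite genes were thus no more than about the share over all genes.

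**Figure D5:**
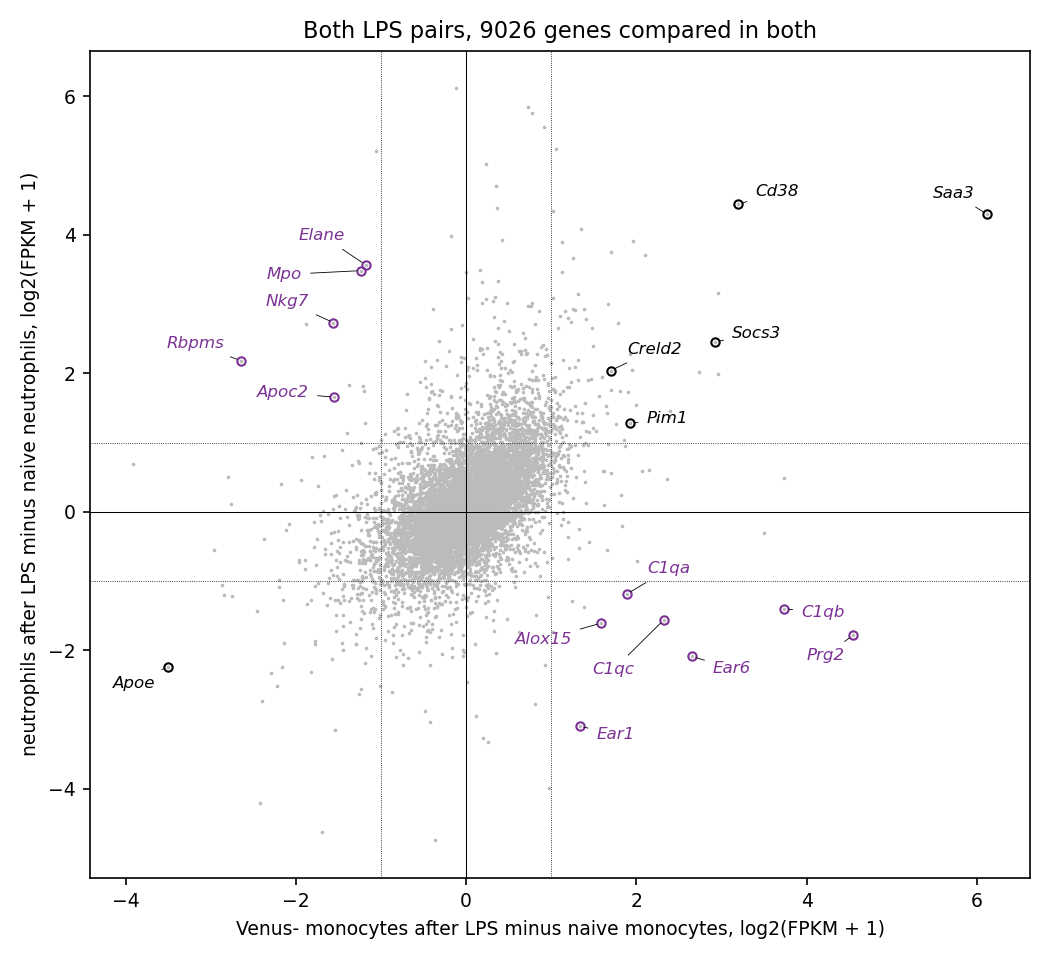
Each point is 1 of 9026 genes, at its LPS difference in Venus- monocytes (x axis) and in neutrophils (y axis), both in log2(FPKM + 1); dotted lines mark 2-fold and purple names mark genes past 2-fold in opposite directions. Saa3, Cd38, Socs3 and Pim1 lie at the upper right, Apoe at the lower left, and the C1q genes and Prg2 at the lower right.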

How the data were processed

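RNA-seq was made from 5 sorted BM samples, 1 library for each of 5 groups, taken from the sample labels. The authors deposited 1 table of FPKM values per library. That the values are FPKM is read from the Cufflinks column name and the values. Reads were aligned to mm9 with TopHat2 2.0.8 and quantified with Cufflinks 2.1.1, as far as the submitters' notes list tools, with no options named. FPKM includes scaling by length and depth, so depth had to be estimated from the most frequent low value, taken as 1 fragment, with GENCODE transcript lengths.

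Differences of log2(FPKM + 1) were computed with Python 3.11.15, numpy 2.4.6, pandas 2.3.3 and scipy 1.17.1, tested on simulated data, and plotted with matplotlib 3.10.9. The pseudocount was 1. No test was possible with 1 library per group. Counting intervals of folds are exact conditional 95% intervals.

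The comparison and the 52 gene lists were chosen with earlier results of these data known, and the motifs after the values were seen. Genes were named by rule: the 3 markers Saa3, Apoe and Csf1r, the 20 largest increases and decreases that reach an FPKM of 10 in either of the libraries, the gate genes Chi3l3 and Ly6c2, up to 5 higher, 5 lower and 3 other members per list, the 5 highest genes and those at the filter. Other genes printed were chosen after their values were seen. Of the compared genes, 8524 matched a RefSeq promoter of GRCm38.p6. Spi1, Ly6g, Pirb, Mzb1, Azu1 and Wfdc21 were not analysed here, and a few list members are not reported here. Alternatives were a pseudocount of 0.1, different filters, scaling to TPM or by median of ratios, a 4-fold threshold and, chosen after seeing the data, a minimum of 10 estimated fragments.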

Additional observations from a re-analysis of the deposited data

Results flagged for a closer look

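Of the genes past 2-fold in opposite directions in the monocyte and the neutrophil pair (10 higher in monocytes and 13 lower), 12 are described in the report. The 10 are 4.81% of the 208 higher monocyte genes and the 13 are 4% of the 325 lower ones. Over all neutrophil genes compared, 5.05% were lower and 8.69% higher. Each value below is the monocyte difference minus the neutrophil difference in log2(FPKM + 1). With 1 library per group the difference between the cell types was not tested. Eosinophil genes were higher in the monocyte library after LPS and lower in the neutrophil library, namely Prg2 (6.327), Ear6 (4.738), Ear1 (4.428) and Alox15 (3.193). The C1q genes C1qb (5.137), C1qc (3.883) and C1qa (3.075) followed the same pattern. Prg2 was at 0.37 in neutrophils after LPS and 3.72 in naive neutrophils, and C1qb at 1.38 and 5.27. In the reverse direction were the azurophil granule genes Elane (-4.747) and Mpo (-4.721), the RNA-binding protein gene Rbpms (-4.83), the cytotoxic granule gene Nkg7 (-4.29) and Apoc2 (-3.203). Mpo was at 119 in neutrophils after LPS and 9.77 in naive neutrophils, against 385 and 910.3 in the monocytes.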

How the results depend on the processing

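No paired analysis was possible because each group has 1 library and no test was run. For the monocytes, 276 genes higher and 465 lower became 457 and 767 with a pseudocount of 0.1 and 26 and 45 at a 4-fold threshold. For the neutrophils, 480 lower became 827 with a pseudocount of 0.1, the counts at 4-fold were 144 and 67, and the median of 0.07 became -0.038 after rescaling to TPM. Under the filter at an FPKM of 5, no filter, median-of-ratios scaling, genes listed at 0 kept and short RNA genes kept, the counts stayed within 1.5 times, as did the monocyte counts after TPM scaling (288 and 679) and with at least 10 estimated fragments (265 and 450). No named gene that was at least 2-fold apart changed direction under an alternative. Changes of sign among smaller differences were not followed. After TPM scaling Myd88, Txnrd1, Gclm, Gapdh, Pgk1 and Rps2 came to under 2-fold, as did Gclm after median-of-ratios scaling. List medians near 0 changed sign after TPM scaling for the brake, class I and cholesterol lists (-0.05, -0.03 and -0.04). The filter at 5 moved the chemokine receptor list from -0.17 to 0.14, the class II list from -0.80 to -1.33, the eosinophil list from -0.12 to 1.99 and the chemokine ligand list from -0.09 to -1.53. At this depth a gene with an FPKM of 10 and 2 kb has a counting interval of 7.98 to 12.4 after LPS, and genes near an FPKM of 1 rest on few fragments. The stem and progenitor median ran from -1.34 to -0.22. The spread between mice is unknown.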

Other observations

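Genes listed at exactly 0 in one library were left out of the comparison, 25 of them after LPS and 17 in naive monocytes, because such a 0 can be a failed estimate. Among them, Cd209a, a lectin of monocyte-derived dendritic cells, had an FPKM of 12.7 in naive monocytes and 0.07 in Venus+ monocytes, and Gm1673 had 10.8 and 1.27. Upp1, uridine phosphorylase, had 3.46 in Venus- monocytes after LPS, 6.81 in Venus+ monocytes, 184 in neutrophils after LPS and 14.7 in naive neutrophils. Mmp14, a membrane-bound matrix protease, had 1.96 and Venus+ monocytes 3.72, and Mt2, a metallothionein like Mt1, had 1.21 after LPS. Hist1h1b, a linker histone, had 3.90 in naive monocytes.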
